A study of Mus musculus with 6 samples.

Results

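The SOX genes of dorsal skin were described here in UVB-irradiated Cbl-b-/- and WT mice, with Sox15 set beside 9 of its paralogs (Sox2, Sox4, Sox5, Sox6, Sox7, Sox9, Sox17, Sox18 and Sox21). The members were 10 of the 20 Sox genes in the table, taken for their known use in epidermis, hair follicle and vessels, and each was read from the row of the array table whose single gene symbol is that gene. Each of the 20 genes had 1 such row, so no choice between rows was needed. Sox15 was chosen by its measured difference between the genotypes on these 6 arrays, so that difference is given as a description and no test is read from it.

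Skin was taken from the back of 3 Cbl-b-/- mice (spelled clb-b -/- in the labels) and 3 WT mice 24 h after a single exposure to 80 mJ/cm2 of UVB, matched for sex and age. Both groups were of the BL6 background and shaved the day before, and they are named by the inactivation of Cblb, which encodes the ubiquitin ligase Cbl-b. The methods name neither the BL6 substrain nor littermates. Any other genetic difference between the groups therefore cannot be told apart from that of Cblb. Total RNA of each mouse was read on a whole-transcript Affymetrix mouse array, and the values are log2 levels after robust multichip averaging (RMA) by the authors. Skin from before irradiation was not analysed here, so the values compare irradiated skin with irradiated skin.

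SOX proteins bind DNA through a high-mobility-group box related to that of the testis-determining factor SRY, and they usually act together with partner factors. In skin, Sox9 maintains the stem cells and the outer root sheath of the hair follicle, Sox21 is needed for the hair shaft cuticle, Sox4 is active during hair growth, and Sox2 marks the dermal papilla and Merkel cells. Sox7, Sox17 and Sox18 form the SoxF group of vascular endothelium, where Sox18 switches on Prox1 during lymphatic development. Sox5 and Sox6 are SoxD proteins without a transactivation domain of their own, and Sox6 also acts in skeletal muscle. Sox15, the sole SoxG member, is closest in its box to the SoxB group and is known from muscle precursors and placenta.

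For 6 of the 10 members (Sox2, Sox4, Sox5, Sox6, Sox15 and Sox21) a promoter window was at hand in RefSeq (build GRCm38.p6). Those of Sox15, Sox4 and Sox21 are shown as the 250 bases before the start of the gene, because Sox15 is the member with the difference between genotypes and Sox4 and Sox21 are follicle members that varied between arrays. Capitals mark matches, on either strand, to 6 short motifs (AACAAT of SOX proteins, CTTTGA of TCF and LEF, TATAAA of the core promoter, CCAAT of NF-Y, GGGCGG of SP1 and TGANTCA of AP-1). They lie at chr11:69654787-69655036 on the plus strand for Sox15, at chr13:28953700-28953949 on the minus strand for Sox4 and at chr14:118237031-118237280 on the minus strand for Sox21.
Sox15: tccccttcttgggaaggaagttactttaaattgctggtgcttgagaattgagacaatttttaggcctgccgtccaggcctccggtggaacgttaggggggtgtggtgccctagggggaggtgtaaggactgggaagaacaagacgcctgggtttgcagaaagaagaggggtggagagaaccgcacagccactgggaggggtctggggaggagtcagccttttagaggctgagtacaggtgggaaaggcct
Sox4: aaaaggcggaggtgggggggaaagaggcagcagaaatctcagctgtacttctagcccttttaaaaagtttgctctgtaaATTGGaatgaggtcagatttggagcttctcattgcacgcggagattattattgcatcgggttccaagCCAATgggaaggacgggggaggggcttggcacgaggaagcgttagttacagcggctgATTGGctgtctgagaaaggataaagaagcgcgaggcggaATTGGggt
Sox21: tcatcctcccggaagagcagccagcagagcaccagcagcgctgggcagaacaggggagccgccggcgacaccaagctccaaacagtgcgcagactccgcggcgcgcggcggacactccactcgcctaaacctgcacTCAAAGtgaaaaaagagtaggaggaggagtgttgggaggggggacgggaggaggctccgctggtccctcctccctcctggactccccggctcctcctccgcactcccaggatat
The Sox15 window holds none of the 6 motifs as spelled. The Sox4 window holds 4 CCAAT boxes, a motif found in 33.8% of 32851 such windows. The Sox21 window holds 1 CTTTGA, found in 13.8% of windows. AACAAT stands in 9.42% of all windows, TATAAA in 12.4%, GGGCGG in 32.7% and TGANTCA in 6.75%. The G and C content was 55.6% for Sox15, 50.8% for Sox4 and 65.2% for Sox21, against a median of 52.4%. A match describes letters, not a binding site.

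In irradiated skin, Sox15 stood higher in Cbl-b-/- than in WT mice, about 1.52-fold, the difference for which it was chosen. The other 9 members lay between 1.2-fold lower and 1.25-fold higher, and in none of them did the genotypes separate. Sox15 read 7.73, 8.0 and 7.81 in the 3 Cbl-b-/- arrays. In the WT arrays it read 7.16, 7.39 and 7.17. Each Cbl-b-/- value was above each WT value, and the gap between the groups (7.73 against 7.39) was wider than the range within either (0.27 and 0.23). This is a log2 difference of 0.61 (standard error 0.11). The study called a gene at a 1.5-fold difference with an unadjusted p below 0.05. With p from limma, 1.22% of all rows met this here (0.276% as higher in Cbl-b-/- and 0.945% as lower). That is 434 rows, against 267 with the per-row test of the study's methods. Over the table, 8.66% of rows were higher on every Cbl-b-/- array. Since Sox15 was chosen on these values, nothing is read from its place beside those shares.

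Sox15 lies just inside the fold threshold, which is 0.585 on the log2 scale, and the nearest member outside it is Sox18 at 0.32. With single arrays left out, the Sox15 difference ran from 0.53 to 0.68. It was under the threshold without Cbl-b-/- replicate 2 (0.53), without WT replicate 1 (0.57) and without WT replicate 3 (0.57). It was 0.60 with the level of hair genes on each array as a covariate.

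**Figure D1:**
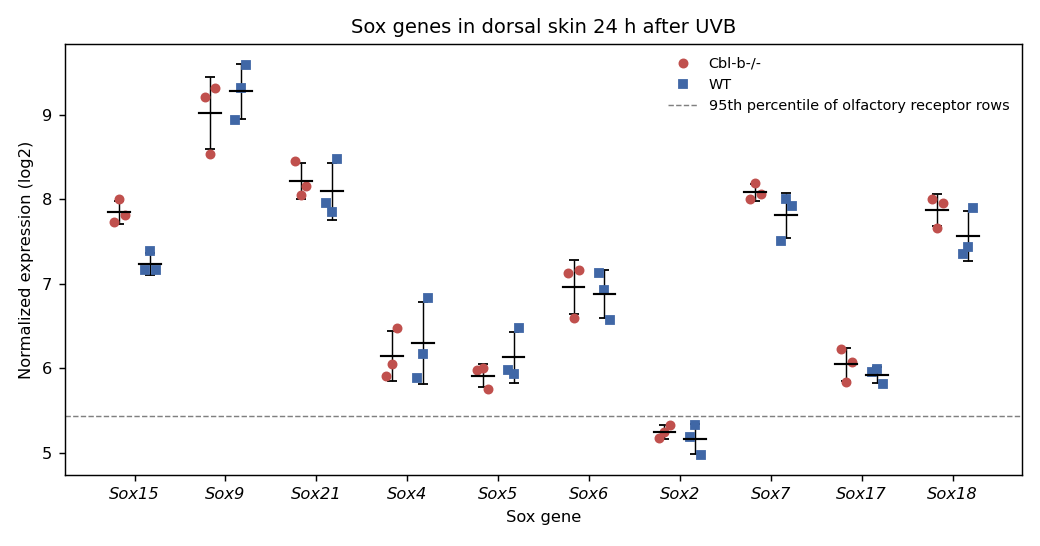
Normalized expression (log2, vertical axis) of 10 Sox genes (horizontal axis), with circles for Cbl-b-/- and squares for WT arrays, in irradiated skin, with single arrays as points and the mean and SD of 3 arrays as bars and whiskers. The dashed line is the background limit of 5.43 set from olfactory receptor rows, and the genotypes are apart for Sox15 alone.

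The genes on either side of Sox15 in the RefSeq order had smaller estimates. Fxr2, a paralog of the fragile X protein, stood at a log2 difference of 0.0013 (standard error 0.10), and Mpdu1, of dolichol sugar use, at 0.055 (standard error 0.10). Farther out, Sat2 stood at 0.060, Shbg at 0.027, Atp1b2 at 0.24, Eif4a1 at −0.13 and Senp3 at −0.020. Eif4a1 had 3 rows, of which the one with the highest mean was read, and whether that row reads the locus beside Sox15 was not checked. Cd68, a macrophage marker, was at 0.40 (standard error 0.19, adjusted p = 0.751 from limma). The neighbours were looked up after the value of Sox15 was known. Of the 20 Sox genes, 0 lie on chromosome 16, which carries Cblb.

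Among 14402 other genes above the background limit in a genotype, those most like Sox15 over the 6 arrays were ranked by the root mean square difference between profiles centred on their own mean. The closest was Masp1, a protease of the complement lectin pathway, with 0.076 on the log2 scale. Fos, a subunit of AP-1, followed with 0.079, then Arc, an immediate early gene of neurons, with 0.11, the vomeronasal receptor gene Vmn2r54 with 0.11 and the myeloid receptor gene Cd300lb with 0.12. Vmn2r54 entered by its Cbl-b-/- mean alone (5.51), and its WT mean (5.04) was not above the background limit. Fos read 7.28, 7.50 and 7.39 in Cbl-b-/- and 6.81, 7.12 and 6.70 in WT skin. Likeness is a description over these 6 arrays, and it includes the difference between genotypes that chose Sox15.

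Genes named with Sox15 in muscle precursors, Fhl3 (its binding partner), Foxk1 (their shared target), Pax7 and Myod1, also had smaller estimates. Of these 4 genes, 0 met the study's thresholds and 0 had an unadjusted limma p below 0.05, where 6.55% of all rows did (3.68% as higher in Cbl-b-/-). Foxk1 read 9.42, 9.39 and 9.47 in Cbl-b-/- and 9.30, 9.29 and 9.33 in WT skin, a log2 difference of 0.12 (standard error 0.072) with no overlap. It was 1 of the 4 genes to be higher on every Cbl-b-/- array, where 8.66% of all rows were. The largest was Myod1 at 0.13 (standard error 0.31), and Pax7 also stood at 0.13 (standard error 0.093). The median of the 4 was 0.12 (0.034 without Cbl-b-/- replicate 1), beside 0.020 over all rows.

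Epidermal marker lists gave no call. Of 8 basal genes (Krt5, Krt14, Trp63 and others) 0 met the thresholds, with a median log2 difference of 0.18 (0.035 without WT replicate 3) and Lamb3, a laminin chain, at 0.37 (standard error 0.16). Of 9 measured suprabasal genes 0 met them, with a median of 0.11 (−0.072 without that array) and Grhl3, a factor of barrier formation, at 0.35 (standard error 0.17). The mean basal level was 9.84 to 10.18 in Cbl-b-/- and 9.56 to 10.05 in WT arrays, and it was lowest in WT replicate 3. Their part in the level of Sox15 was not tested. In whole skin, fewer cells of a type and less RNA per cell cannot be told apart.

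Of the other 9 members, 0 had an unadjusted p below 0.05, whether from limma or from the per-row test of the study's methods. In limma, 6.55% of all rows did. Their adjusted p-values from limma ran from 0.765 to 0.95, in a table where 0.00281% of rows (1 row) were under 0.05 after adjustment. Of the 10 members, 7 were above 0 (Cbl-b-/- minus WT) and 3 below, with a median of 0.11 (0.088 without Sox15, 0.024 without Cbl-b-/- replicate 1 and 0.22 without Cbl-b-/- replicate 2). Over the whole table, 55.8% of rows were above 0. Precision is limited by the 3 arrays per genotype, for which the smallest two-sided p of an exact permutation test is 0.10.

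**Figure D2:**
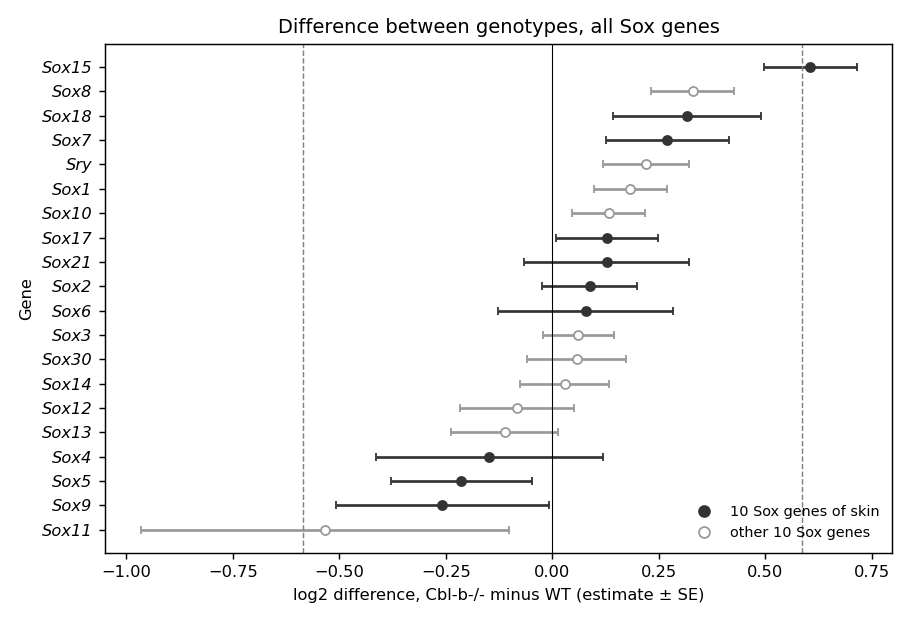
Log2 difference between genotypes (horizontal axis, Cbl-b-/- minus WT, 3 arrays each) for 20 Sox genes (vertical axis), as limma estimates with standard errors, with filled points for the 10 genes of skin and open points for the other 10. Dashed lines mark 1.5-fold on either side of 0, and Sox15 at 0.61 is the one estimate beyond them.

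Several members varied more between arrays of a genotype than between the genotypes. Sox4, Sox5, Sox9 and Sox21 each had their highest value in WT replicate 3, which is 4 of 10 members where 16.8% of all rows did so, and the same held for 4 of the other 10 Sox genes (Sox12, Sox13, Sox14 and Sox30). Sox2, Sox6 and Sox17 had their lowest value there, as 19.7% of all rows did. Sox9, of follicle stem cells, read 9.21, 8.54 and 9.32 in Cbl-b-/- skin. In WT skin it read 8.94, 9.32 and 9.59. The groups overlapped between 8.94 and 9.32, with Cbl-b-/- replicate 2 the lowest and WT replicate 3 the highest. Its log2 difference was −0.26 (standard error 0.25, 95% interval −0.86 to 0.34, adjusted p = 0.851 from limma). It was −0.11 with WT replicate 3 omitted and −0.017 with Cbl-b-/- replicate 2 omitted.
Sox21, of the hair cuticle, read 8.46, 8.05 and 8.16 in Cbl-b-/- and 7.96, 7.85 and 8.48 in WT skin. WT replicate 3 and Cbl-b-/- replicate 1 were alike and above the other arrays. The log2 difference was 0.13 (standard error 0.19, 95% interval −0.34 to 0.59), and it ran from 0.0052 to 0.32 as single arrays were left out.
Sox4, a SoxC factor, read 5.91, 6.05 and 6.48 in Cbl-b-/- and 5.89, 6.17 and 6.83 in WT skin. Its widest gap was within the WT group, where WT replicate 3 was 0.80 above the mean of the other 2. The log2 difference of −0.15 (standard error 0.27, 95% interval −0.79 to 0.49) turned to 0.12 without that array. Sox5 read 5.98, 6.0 and 5.76 in Cbl-b-/- and 5.98, 5.93 and 6.48 in WT skin, so that 5 arrays lay within 5.76 to 6.0 and WT replicate 3 lay apart. Its log2 difference was −0.21 (standard error 0.17, 95% interval −0.61 to 0.18), and −0.038 without WT replicate 3.

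The same array carried the highest level of hair genes. The mean of 26 measured hair matrix and shaft genes was 8.94 in WT replicate 3 and 5.63 to 6.98 in the other arrays, and 25 of the 26 were highest there. Dsg4, the desmoglein of the hair shaft, read 8.88 in that array and 4.88 to 6.08 in the others. All 8 melanocyte genes were highest there too, with a mean of 8.19 against 5.82 to 6.18. Of these 2 lists, 0 genes met the study's thresholds between the genotypes. The median log2 difference of the hair list was −0.33, and 0.60 without WT replicate 3, and that of the melanocyte list was −0.51, and 0.14 without it. Tyrp1, an enzyme of melanin synthesis, stood at −1.25 (standard error 1.03).
For 10 genes of follicle stem cells and outer root sheath (Krt15, Cd34, Lhx2 and others), the mean level was 8.76, 8.16 and 8.86 in Cbl-b-/- and 8.51, 8.56 and 8.91 in WT skin. The median log2 difference was −0.058, rising to 0.13 when WT replicate 3 was omitted and to 0.23 when Cbl-b-/- replicate 2 was. Both the mean of this list and Sox9 were lowest in Cbl-b-/- replicate 2 and highest in WT replicate 3. The genes of the list were not alike in WT replicate 3, where 5 of 10 had their highest value and 1 its lowest. Krt15 (8.95) and Cd34 (9.79) stood below the other WT arrays there. Of the 10 genes 0 met the thresholds, and Foxc1, a factor of stem cell quiescence, had the largest difference at −0.46 (standard error 0.23). The part of follicle content in the values of the Sox genes was not tested beyond the fit with the hair level as a covariate, where Sox4 stood at −0.063, Sox5 at −0.17, Sox9 at −0.22 and Sox21 at 0.17.

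**Figure D3:**
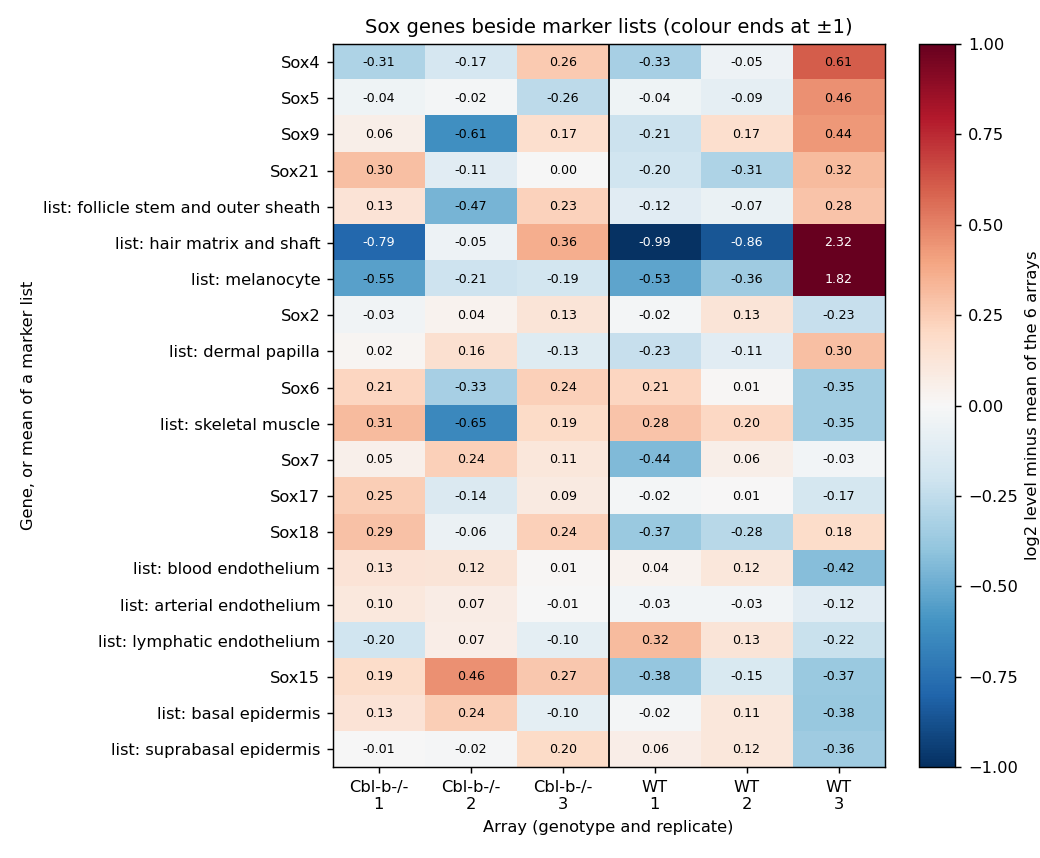
Level of each Sox gene and mean level of marker lists (rows) on the 6 arrays (columns), as the log2 value minus the mean of the 6 arrays, with red above and blue below that mean. In WT replicate 3 the hair list stood 2.32 and the melanocyte list 1.82 above the mean, and Sox4, Sox5, Sox9 and Sox21 had their highest values.

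The SoxF genes of vessels were all above 0, and none passed a test. Sox7 read 8.0, 8.19 and 8.06 in Cbl-b-/- and 7.51, 8.01 and 7.92 in WT skin. The groups overlapped narrowly (8.0 against 8.01), and WT replicate 1 was the lowest array. That gave a log2 difference of 0.27 (standard error 0.14, 95% interval −0.076 to 0.62, adjusted p = 0.765 from limma), and 0.12 without WT replicate 1.
Sox18, mutated in the ragged mice, read 8.01, 7.66 and 7.96 in Cbl-b-/- and 7.35, 7.44 and 7.90 in WT skin. WT replicate 3 lay among the Cbl-b-/- arrays, and the other WT arrays lay below all of them. Over all arrays the log2 difference was 0.32 (standard error 0.17, 95% interval −0.099 to 0.73, adjusted p = 0.771 from limma). Without WT replicate 3 it was 0.49 (standard error 0.13, unadjusted p = 0.0127 and adjusted p = 0.633 from limma), still under the fold threshold. Sox17 read 6.23, 5.84 and 6.07 in Cbl-b-/- and 5.96, 5.99 and 5.81 in WT skin, so that the groups overlapped between 5.84 and 5.99. It differed by 0.13 on the log2 scale (standard error 0.12, 95% interval −0.16 to 0.42), and by 0.072 without WT replicate 3 and 0.038 without Cbl-b-/- replicate 1.

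Among 14 blood endothelial genes, 12 were above 0 and 0 met the study's thresholds. Their median log2 difference was 0.17, and 0.030 without WT replicate 3, in which 14 of 14 had their lowest value. Of the 14, 2 had an unadjusted limma p below 0.05, where 6.55% of all rows did. They were Cldn5, the tight junction claudin of endothelium, and Egfl7, a secreted endothelial protein, with 0.39 (standard error 0.12) and 0.39 (standard error 0.13). Emcn, an endothelial sialomucin, stood at 0.34 (standard error 0.26). Of 8 arterial genes 0 met the thresholds, with a median of 0.090 (0.030 without Cbl-b-/- replicate 1) and the Notch ligand gene Dll4 at 0.37 (standard error 0.14).
Of 7 measured lymphatic genes 3 met them, where 1.22% of all rows did, on a list made with these values known. The median of the 7 was 0.26 (0.11 to 0.42 with single arrays left out), with 5 above 0 and 2 below. In WT replicate 3, 5 of the 7 had their lowest value. Prox1, the lymphatic regulator and a target of Sox18, read 6.12, 6.10 and 6.44 in Cbl-b-/- and 5.65, 5.62 and 5.57 in WT skin, and Flt4, the VEGF-C receptor, read 6.87, 6.91 and 6.83 against 6.41, 6.19 and 6.17. Mmrn1, which encodes multimerin 1, read 3.64, 3.91 and 3.78 in Cbl-b-/- and 7.14, 6.87 and 5.99 in WT skin. It stood on the opposite side from Prox1 and Flt4, with a Cbl-b-/- mean not above the background limit. Whether this difference comes with Cblb or with another genetic difference between the groups was not tested. The mean level of the blood endothelial list was 7.55 to 7.67 in Cbl-b-/- and 7.11 to 7.65 in WT arrays, and the part of vessel content in the SoxF values was not tested.

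Sox6 read 7.13, 6.59 and 7.16 in Cbl-b-/- and 7.13, 6.93 and 6.57 in WT skin, with 1 low array in each group. Between genotypes the log2 difference was 0.078 (standard error 0.21, 95% interval −0.41 to 0.57), and it fell below 0 without WT replicate 3 (−0.074) and without either of the higher Cbl-b-/- arrays (−0.0054 and −0.023). The mean of 10 skeletal muscle genes was 10.27, 9.31 and 10.15 in Cbl-b-/- and 10.24, 10.16 and 9.61 in WT skin, and its low arrays were also Cbl-b-/- replicate 2 and WT replicate 3. Their median log2 difference was −0.19, or −0.42 when WT replicate 3 was omitted and 0.11 when Cbl-b-/- replicate 2 was. Of those 10 genes, 7 were below 0 and 3 above. Only Myh2, a fast myosin heavy chain, met the study's thresholds in limma, which 1.22% of all rows did. It was higher in Cbl-b-/- skin by 0.85 (standard error 0.28). Its groups overlapped, since Cbl-b-/- replicate 2 (9.02) lay below WT replicate 2 (9.11). After adjustment over all rows, the limma p of Myh2 was 0.743.

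Sox2 was not shown to lie above background. It read 5.17, 5.24 and 5.33 in Cbl-b-/- and 5.18, 5.33 and 4.97 in WT skin. Its means of 5.25 ± 0.08 (SD, n = 3) and 5.16 ± 0.18 (SD, n = 3) were under 5.43, the 95th percentile of 1035 olfactory receptor rows, whose genes are not known to be used in skin. The log2 difference was 0.088 (standard error 0.11). The limit is coarse, since Sox1 and Sox3, genes of neural tissue, lay above it at 6.71 to 7.0 in group means. Sox4, Sox5, Sox8 and Sox17 lay below those 2 genes, at 5.91 to 6.41 in group means. Sox6 (6.88 and 6.96) and Sox10 (6.70 and 6.83) were near their level. A mean above the limit therefore does not by itself show that these genes were expressed. Merkel cell genes, which share Sox2 as a marker, lay on both sides of the limit, with 3 of 6 above it and 0 past the study's thresholds. Atoh1, the factor that specifies Merkel cells, and other genes of that list differed by −0.10 to 0.18.
Of 14 measured dermal papilla genes, 1 met the thresholds in limma, where 1.22% of all rows did (0.276% as higher). That was Crabp1, a retinoic acid binding protein, higher in Cbl-b-/- skin. It read 10.38, 11.02 and 10.12 in Cbl-b-/- and 9.87, 9.68 and 9.90 in WT skin, which is 0.69 apart on the log2 scale (standard error 0.23, adjusted p = 0.743 from limma). The median of the 14 was 0.044 (−0.010 to 0.16 with single arrays left out), with 7 above 0 and 7 below. Vcan had the largest difference of the list, lower in Cbl-b-/- skin at −0.76 (standard error 0.35), and did not meet the thresholds.

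**Figure D4:**
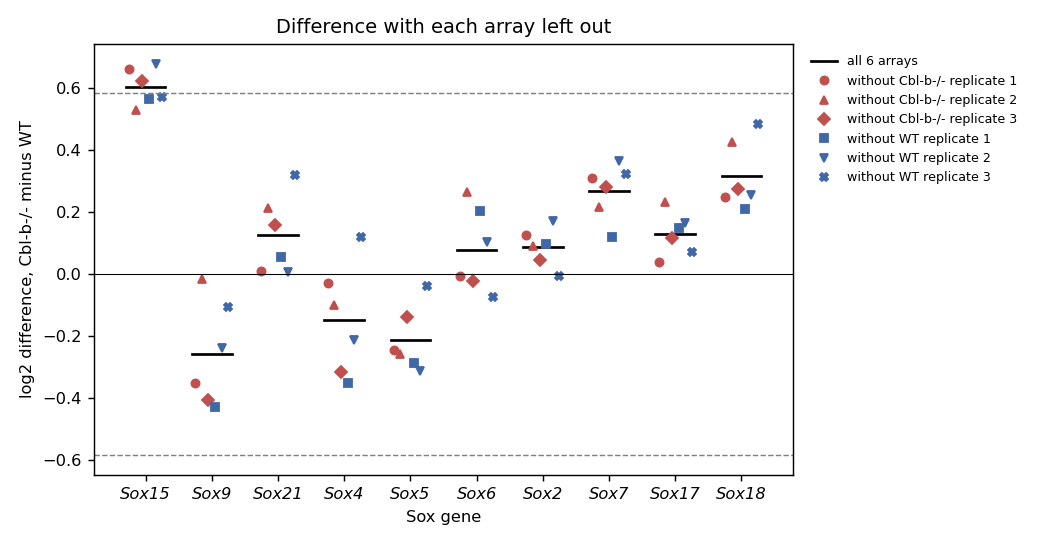
Log2 difference between genotypes (vertical axis, Cbl-b-/- minus WT) of 10 Sox genes (horizontal axis) with all 6 arrays (black lines) and with each array left out (symbols, red for Cbl-b-/- and blue for WT arrays). Sox15 ran from 0.53 to 0.68 across the upper dashed line of 1.5-fold, and Sox4, Sox6 and Sox2 crossed 0.

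Among the other 10 Sox genes of the mouse, 0 met the study's thresholds in limma or in the methods' test. At an unadjusted limma p below 0.05 there was 1 of 10, where 6.55% of all rows passed. That was Sox8, a SoxE gene next to Sox9 and Sox10 in sequence. It read 6.46, 6.46 and 6.33 in Cbl-b-/- and 5.99, 6.02 and 6.24 in WT skin. The groups did not overlap, and the log2 difference was 0.33 (standard error 0.098, 95% interval 0.094 to 0.56, adjusted p = 0.717 from limma). With each array left out it ran from 0.28 to 0.41.
Sox1 and Sry also had no overlap, at log2 differences of 0.18 (standard error 0.086) and 0.22 (standard error 0.10), which makes 3 of 10, where 8.66% of all rows were higher on every Cbl-b-/- array. Sox10, of melanocytes and Schwann cells, read 6.76, 6.94 and 6.79 in Cbl-b-/- and 6.65, 6.77 and 6.66 in WT skin. It stayed within that range in WT replicate 3, where the melanocyte list was high. Among 6 measured Schwann cell genes 0 met the thresholds, and the median was 0.19, or 0.082 without WT replicate 3.
Sox11, a SoxC gene like Sox4, varied most. It read 4.89, 5.95 and 4.24 in Cbl-b-/- and 5.16, 5.61 and 5.92 in WT skin, and Cbl-b-/- replicate 2 was the highest array of all. Its log2 difference was −0.53 (standard error 0.43, adjusted p = 0.820 from limma), with a Cbl-b-/- mean of 5.03 that was not above the background limit. It was −0.14 without Cbl-b-/- replicate 3. Without Cbl-b-/- replicate 2 it was −1.0 (standard error 0.28, adjusted p = 0.611 from limma), past the study's thresholds.

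The same array was high in genes of stressed epidermis. The mean of 9 such genes (Krt6a, Krt16, S100a8 and others) was 9.60, 11.13 and 9.02 in Cbl-b-/- and 10.16, 10.46 and 10.12 in WT skin. Their median log2 difference was −0.46, and it ran from −1.16 without Cbl-b-/- replicate 2 to 0.17 without Cbl-b-/- replicate 3, with 0 of 9 past the study's thresholds. S100a8, a neutrophil and keratinocyte alarmin, stood at −0.65 (standard error 0.87). Sox15 was highest in that array as well (8.0), and the part of this in its value was not tested.
The HMG-box relatives that bind beta-catenin gave no call. Of Lef1, Tcf7l1, Tcf7l2 and Ctnnb1 (beta-catenin itself), 0 of 4 met the thresholds. Lef1, a factor of the hair matrix, read 8.95 in WT replicate 3 and 6.09 to 6.79 in the other arrays, and Tcf7l2 read 9.48 there and 8.49 to 8.97 elsewhere. The median of the 4 was −0.16, and 0.22 without WT replicate 3.

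For Sox21, the closest of 14402 such genes over the 6 arrays were those of Lhfpl3 (0.070), the phosphatase gene Dusp4 (0.082), the olfactory marker gene Omp (0.088), the defensin gene Defb46 (0.090) and the carbohydrate kinase gene Fggy (0.097), by the same root mean square difference on the log2 scale. Each was high in Cbl-b-/- replicate 1 and WT replicate 3, as Sox21 was, with log2 differences between genotypes from 0.025 to 0.19. For Omp, the Cbl-b-/- mean (5.54) was above the background limit and the WT mean (5.35) was not.

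Cblb, the inactivated gene, read 8.61, 8.69 and 8.61 in Cbl-b-/- and 9.90, 9.66 and 9.72 in WT skin, lower on each Cbl-b-/- array than on each WT array. Of all rows, 4.89% were lower on every Cbl-b-/- array. Its log2 difference was −1.12 (standard error 0.092, adjusted p = 0.0782 from limma), and its Cbl-b-/- mean of 8.64 stayed above the background limit of 5.43. Array medians were 6.3 to 6.34. The lowest correlation between arrays across rows was 0.980. Whole-table calls at the study's thresholds numbered 434, and 790 without Cbl-b-/- replicate 2.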

How the data were processed

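Back skin from 6 irradiated mice (3 of each genotype) was measured on 1 array per mouse, and each array was given its genotype and replicate number from the labels. The deposited table holds log2 values for 35556 rows (transcript clusters), which the authors made by RMA (background correction, quantile normalization, median polish) in Partek Genomics Suite, whose version is 6.5 in the submitters' processing notes, which also name Affymetrix Expression Console. Quantile normalization sets the arrays to 1 distribution, so a shift of all genes cannot be seen. Of the rows, 21789 carry 1 gene symbol, 1621 several and 12146 none, from an older platform annotation. Rows were compared with limma 3.58.1 (R 4.3.3) as Cbl-b-/- minus WT, with p-values adjusted by Benjamini and Hochberg over all rows. The study's thresholds (unadjusted p under 0.05 and 1.5-fold) were applied to the same fit, and the per-row test of the study's methods was an alternative. The fits were tested on simulated data. P-values set the difference between genotypes against the spread between mice of a genotype. In limma, the spread of each row is drawn toward a value shared over all rows.

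A group mean not over the 95th percentile of 1035 olfactory receptor rows (5.43) was called not shown to lie above background. Lists were described by counts and medians, with no set test. Named were the 10 members, other Sox genes past a threshold or marking a cell type, list genes past the thresholds (otherwise up to 3 with the largest differences), the 5 rows closest to Sox15 and to Sox21, and the neighbours of Sox15. The members and lists were chosen with earlier results of these data known. Tcf7, Krt81, Krt85, Enpp2, Dsc1, Dsg1a and Ccl21a have no row of their own and were not analysed here. Alternatives left out each array, added the replicate number or the hair level to the fit, or changed the scaling, variance model, array weights, row filter or row of a gene. Promoter windows came from RefSeq (GRCm38.p6). Replicate numbers were not taken as pairs, since same-numbered arrays of the genotypes correlated at 0.233, 0.092 and 0.247 in their deviations from the group means.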

Additional observations from a re-analysis of the deposited data

How the results depend on the processing

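The difference of Sox15 ran from 0.53 to 0.68 over 15 alternatives, and the choice of this gene, whose groups do not overlap, fixes its direction. The count of Sox members past the study's thresholds was 1 (Sox15 itself), ran from 0 to 1 as single arrays were left out (0 without Cbl-b-/- replicate 2, WT replicate 1 or WT replicate 3), and was 0 with array weights, where Sox15 stood at 0.53. The count at an unadjusted p under 0.05 was 1 and ran from 1 to 2 with arrays left out. It was 2 with array weights and 2 with the hair level as a covariate. The added gene was Sox18 in each, at 0.42 and 0.36, with adjusted p-values from 0.460 to 0.960 over its alternatives. Among the other Sox genes, 0 met the thresholds and the count ran from 0 to 1 with arrays left out, the 1 being Sox11. The count over the genes of the cell type and partner lists was 5, where 1.22% of all rows met the thresholds. Those lists were made with earlier results of these data known. Their count ran from 4 to 11 with arrays left out (11 without Cbl-b-/- replicate 2) and was 3 in the methods' test. With the replicate number as a block it was 4 and Sox15 was again the 1 member past the thresholds. The block moved the whole-table count from 434 to 453, while the methods' test gave 267, the rows above background 268 and the table lacking Cbl-b-/- replicate 2 gave 790. Cbl-b-/- replicates correlated best with the WT array of their own number, but WT replicate 2 did not, so the numbers were not taken as pairs.

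Small differences changed sign in some settings, and the cause was not tested. With arrays left out, Sox2 ran from −0.0071 to 0.17, Sox4 from −0.35 to 0.12, Sox6 from −0.074 to 0.26, Sox12 from −0.19 to 0.028, Sox13 from −0.20 to 0.019, Sox14 from −0.034 to 0.12 and Sox30 from −0.021 to 0.18. With array weights Sox2 stood at −0.0081, and after cyclic loess Sox14 stood at −0.023 and Sox30 at −0.0011. The filter on dim rows left out Sox2 and Sox30.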
